A study of Homo sapiens with 4 samples.

Results

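The clustered histone genes of human MCF10A cells, a non-tumorigenic breast epithelial line, were examined in cells with and without added HSF1, the heat shock transcription factor. Members were chosen by name, as the genes with the prefixes HIST1H, HIST2H, HIST3H and HIST4H, and pseudogenes were left out. They comprised 72 gene records of 63856 in the count table, with 6 records for the linker histone H1, 17 for H2A, 18 for H2B, 16 for H3 and 15 for H4. HIST1H3D has a record of its own and a record for a longer model that spans it and HIST1H2AD, which is called the HIST1H3D spanning model here.

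Total RNA depleted of rRNA was sequenced from 2 samples of wild type cells (WT) and 2 samples of cells carrying the lentiviral vector pLVX with the HSF1 coding sequence (HSF1-pLVX), described by the study as biological replicates. The HSF1-pLVX cells were a stable line selected with puromycin, whereas the WT cells carried no vector, so the vector and its selection cannot be told apart from HSF1 in this comparison. Both groups had the same growth conditions, a medium with horse serum, insulin, hydrocortisone, EGF and cholera toxin. Library totals were between 18688109 and 24184285 counts. HSF1 had 200.4 and 189.2 CPM in the WT libraries and 982.4 and 998.6 CPM in the HSF1-pLVX libraries, where CPM is counts per 1000000 after TMM scaling. Its log2 fold change was 2.35 (SE 0.0999), with an adjusted p of 1.145e-10 in the quasi-likelihood test of edgeR. The HSF1 count includes both the cell's own HSF1 and any vector transcript that maps to it. All 9 mammary epithelial markers were detected (4 rose and 5 fell). The leukocyte marker PTPRC was at 0 in every library, although CD14 was at 1.17 and 0.538 CPM in WT and at 58.6 and 83.2 CPM in HSF1-pLVX. Of 8 fibroblast markers 2 passed the filter on low counts (DCN, which rose, and COL1A1, which was not called), and of 3 endothelial markers none did.

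Histones are the proteins that package DNA. A pair each of H2A, H2B, H3 and H4 forms the core of the nucleosome, and H1 binds the linker DNA. Most of these proteins are made during S phase from clustered, intronless genes. Their mRNAs end in a stem-loop in place of a poly(A) tail, and the stem-loop binding protein SLBP holds this end through processing, translation and decay. Some clustered genes are also known to give polyadenylated transcripts, above all in cells that leave the cycle or differentiate. Other histone genes lie outside the clusters, carry introns and are expressed throughout the cell cycle.

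The stem-loop was looked for in hg38 downstream of each stop codon, as a stem of 6 base pairs that opens with GG and closes with CC around a loop of 4 bases, within 150 bases. It was found in 71 of 71 named genes (the spanning model was not counted), between 23 and 68 bases after the stop codon. Thus the genes called lower, those not called and those with hardly any counts all held it. There were 10 forms of the 16-base core, and 41 genes shared 1 of them. All 15 H4 genes had a core that opened with GGCCC, whereas the core opened with GGCTC in all genes of H1, H2B and H3 and in 16 of 17 H2A genes. The elements of 6 members are shown because the results below turn on these genes. Capitals mark the stem and loop and lower case letters the 5 bases on each side, 5′ to 3′ on the coding strand, from the following places in hg38.

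HIST1H1C (chr6:26055739-26055764, minus strand): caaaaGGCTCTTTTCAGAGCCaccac
HIST1H2AC (chr6:26124664-26124689, plus strand): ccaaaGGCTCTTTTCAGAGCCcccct
HIST1H2BK (chr6:27146361-27146386, minus strand): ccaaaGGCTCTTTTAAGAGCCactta
HIST1H4H (chr6:26285126-26285151, minus strand): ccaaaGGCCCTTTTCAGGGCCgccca
HIST3H2A (chr1:228457364-228457389, minus strand): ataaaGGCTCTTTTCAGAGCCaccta
HIST1H4C (chr6:26104312-26104337, plus strand): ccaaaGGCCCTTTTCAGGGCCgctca

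Clustered histone transcripts were much lower in cells overexpressing HSF1. All members together took 0.03988 and 0.04352% of the counts in the WT libraries and 0.00831 and 0.0071% in the HSF1-pLVX libraries. In normalized counts this was 414.5 and 437.7 CPM against 80.1 and 71.0 CPM, a 5.64-fold lower sum, and the groups did not overlap. The decrease was present in each class. The sum was 8.05-fold lower for H1, 4.98-fold for H2A, 6.06-fold for H2B, 3.13-fold for H3 and 4.67-fold for H4, and in no class did a WT library overlap an HSF1-pLVX library. No test was made of these sums, as an exact permutation of 2 against 2 libraries cannot give a p below 0.33. In RNA from whole cultures, fewer cells that express a gene and less RNA per cell cannot be told apart.

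Of the 72 records, 30 had enough counts to be tested (30 of the 15830 genes that passed the filter on low counts). Of these, 27 were called lower in the cells overexpressing HSF1, with 0.05 as the limit on the adjusted p, and 0 were called higher. Of all tested genes, 33.2% were called lower and 32.7% higher. At an unadjusted p of 0.05 edgeR also called 0 members higher, as did DESeq2 after adjustment. For 25 of the 27 the decrease was at least 2-fold, compared with 14.0% of all tested genes. The median log2 fold change over the 30 was -2.27, beside 0.019 over all tested genes. In 28 of them the groups did not overlap, and the HSF1-pLVX libraries were the lower ones in all but HIST3H2A (41.0% of all tested genes had both HSF1-pLVX libraries below both WT libraries). The filter favours members that are high in 1 group. Altogether 12 of the 30 passed it only through the WT libraries, as not both HSF1-pLVX libraries reached its limit. The direction of these members is therefore not independent of the filter. Of the 17 that reached the filter's limit of 0.5081 CPM in both groups, 15 were called lower and 2 (HIST3H2A and HIST3H2BB) were not called.

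**Figure D1:**
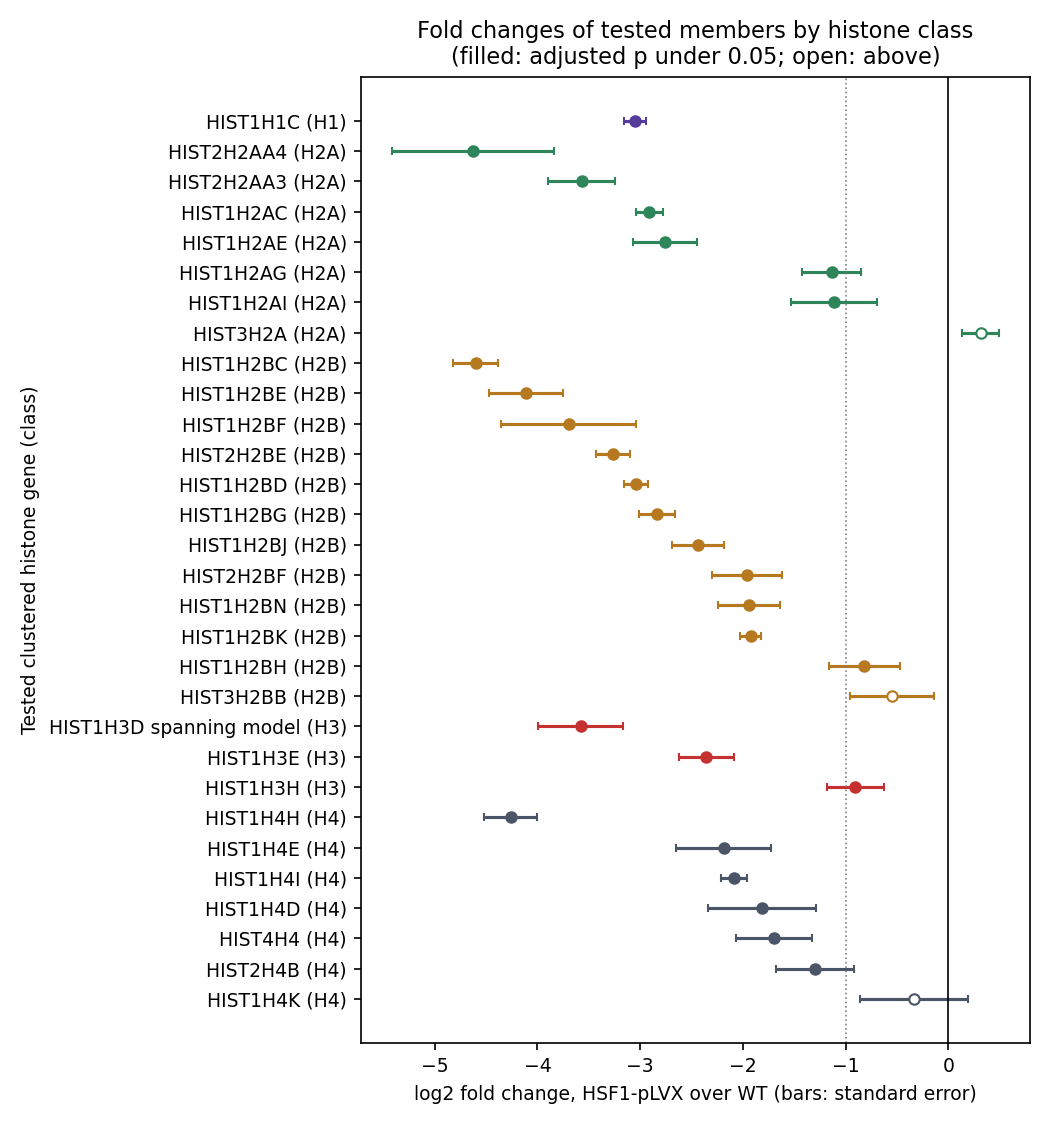
Log2 fold change of HSF1-pLVX over WT (x axis) for the 30 tested clustered histone genes (y axis), grouped and coloured by class, with bars for the standard error. Filled points have an adjusted p under 0.05 in edgeR's test, open points do not, and the dotted line marks a 2-fold decrease: 25 filled points lie beyond it and HIST3H2A alone lies above 0.

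A few members held most of the histone counts. HIST1H2AC took 20.88% of the WT histone CPM, HIST1H1C 15.44%, HIST1H2BD 14.59% and HIST1H2BK 13.0%, so these 4 genes took 63.91% and the first 10 genes 88.63%. Each of the 4 had lower values in both HSF1-pLVX libraries than in either WT library. The other end of the list had few or no counts. In all 4 libraries 11 members were at 0, 27 had at most 3 counts and 39 had at most 10.

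**Figure D2:**
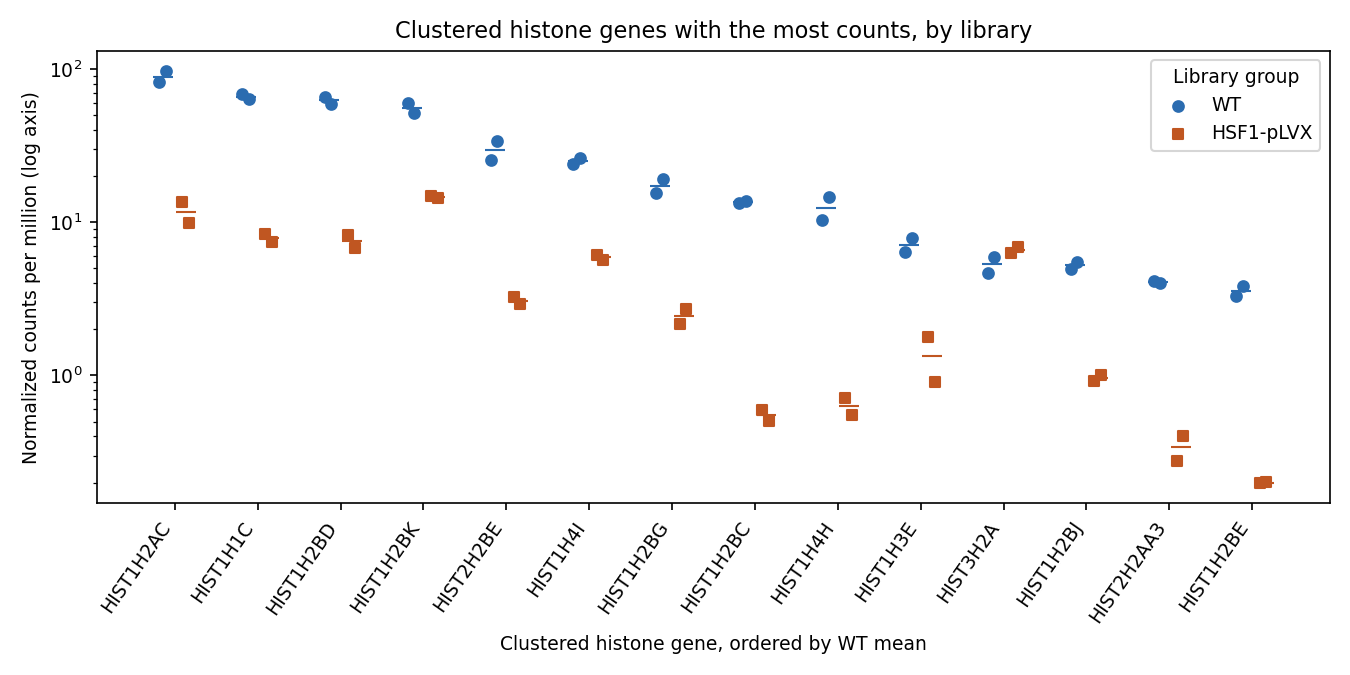
Normalized counts in CPM (log axis) of the 14 clustered histone genes with the highest WT mean, with 1 point per library and a line at the mean of each group (n = 2). All genes except HIST3H2A have both HSF1-pLVX libraries (squares) below both WT libraries (circles).

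The linker histone H1 was represented by a single gene. HIST1H1C (H1-2, chr6:26055787-26056428), which encodes the H1.2 linker histone, had 68.2 and 63.3 CPM in WT and 8.36 and 7.45 CPM in HSF1-pLVX cells. The WT values were close to each other and far above the others, with a log2 fold change of -3.05 (SE 0.106, adjusted p = 2.12e-11). Per kilobase of its model it reached 57.4 CPM over the 4 libraries, while HIST1H1E, the next H1 gene, reached 0.616. HIST1H1E had 16 and 9 counts in WT and 8 and 4 in HSF1-pLVX cells and was not tested. The ratio of its scaled counts, WT over HSF1-pLVX, was 2.51 (95% exact interval 1.21 to 5.48, counting error only). HIST1H1D had 0 and 3 counts in WT and 2 and 3 in HSF1-pLVX cells. HIST1H1B and the testis gene HIST1H1T had at most 3 counts in any library, and HIST1H1A was at 0.

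Among the H2A genes, HIST1H2AC (H2AC6, chr6:26124145-26139116) had the highest level per kilobase (30.2 CPM per kilobase). It had 81.6 and 96.3 CPM in WT and 13.5 and 9.87 CPM in HSF1-pLVX cells. This was a log2 fold change of -2.91 (SE 0.131, adjusted p = 1.947e-10). HIST2H2AA3 (H2AC18) had 4.10 and 3.98 CPM in WT and 0.279 and 0.403 CPM in HSF1-pLVX cells, with a log2 fold change of -3.57 (SE 0.326, adjusted p = 2.668e-07). Its neighbour HIST2H2AA4 is a near-identical copy, so reads of the pair may have been divided or dropped by the counting, and the values of each are uncertain. HIST2H2AA4 had 14 and 12 counts in WT and 0 and 1 in HSF1-pLVX cells, a ratio of scaled counts of 31.3 (95% exact interval 5.14 to 1283). HIST1H2AE, HIST1H2AG and HIST1H2AI were also called lower, with log2 fold changes of -2.76, -1.14 and -1.11.

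HIST3H2A (H2AC25, chr1:228456979-228457873) differed from the other tested H2A genes. It had 4.69 and 5.92 CPM in WT and 6.33 and 6.90 CPM in HSF1-pLVX cells. Both HSF1-pLVX values were above both WT values, but the log2 fold change of 0.32 (SE 0.18, adjusted p = 0.1361) was not called. In WT its level per length, 5.24 and 6.61 CPM per kilobase, was below those of HIST1H2AC, HIST2H2AA3 and HIST1H2AE. In HSF1-pLVX cells it was 7.08 and 7.71, beside 8.12 and 5.91 for HIST1H2AC. HIST3H2BB, which lies head to head with it, had 0.692 and 1.35 CPM in WT and 0.558 and 0.856 CPM in HSF1-pLVX cells. These groups overlapped, and the log2 fold change of -0.55 (SE 0.407, adjusted p = 0.2501) was not called. The third gene of this small cluster, HIST3H3, had 0 counts in both WT libraries and 1 in each HSF1-pLVX library.

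The H2B genes held more of the histone counts than any other class. HIST1H2BK (H2BC12, chr6:27146418-27146798) had the highest level per kilobase of all members (91.8 CPM per kilobase), with 59.6 and 51.2 CPM in WT and 14.9 and 14.3 CPM in HSF1-pLVX cells. It had a log2 fold change of -1.92 (SE 0.104, adjusted p = 1.108e-09) and had more normalized counts than any other member in the HSF1-pLVX libraries. HIST1H2BD (H2BC5, chr6:26158146-26171349) had 65.8 and 58.6 CPM in WT and 8.25 and 6.75 CPM in HSF1-pLVX cells, with a log2 fold change of -3.04 (SE 0.117, adjusted p = 4.83e-11). HIST1H2BC (H2BC4, chr6:26114873-26123926) had 13.4 and 13.8 CPM in WT and 0.598 and 0.503 CPM in HSF1-pLVX cells, with a log2 fold change of -4.60 (SE 0.217, adjusted p = 2.983e-10). HIST1H2BE had 3.30 and 3.82 CPM in WT and 0.199 and 0.201 CPM in HSF1-pLVX cells, with a log2 fold change of -4.11 (SE 0.362, adjusted p = 1.823e-07), but its model overlaps another gene. In these H2B genes the libraries of a group lay close together. HIST2H2BE (H2BC21, chr1:149884459-149886652) had 25.4 and 34.0 CPM in WT and 3.23 and 2.92 CPM in HSF1-pLVX cells, a log2 fold change of -3.26 (SE 0.166, adjusted p = 6.44e-10). HIST1H2BJ had 4.95 and 5.49 CPM in WT and 0.916 and 1.01 CPM in HSF1-pLVX cells (log2 fold change -2.44, adjusted p = 9.866e-07). HIST2H2BF, whose model overlaps FCGR1A, had 1.70 and 2.15 CPM in WT and 0.438 and 0.554 CPM in HSF1-pLVX cells (log2 fold change -1.96, adjusted p = 0.0001658). Neither gene's groups overlapped. HIST1H2BH was at the edge of the call, at a log2 fold change of -0.82 and an adjusted p of 0.04919 by edgeR, and lost it under several alternatives.

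H3 was the class with the fewest counts, and 3 of its 16 records could be tested. HIST1H3E (H3C6, chr6:26224199-26227473) led it with 1.58 CPM per kilobase. It had 6.39 and 7.86 CPM in WT and 1.79 and 0.906 CPM in HSF1-pLVX cells, and a log2 fold change of -2.36 (SE 0.269, adjusted p = 2.662e-06), which was -2.961 without HSF1-pLVX replicate 1. HIST1H3H had 2.18 and 2.15 CPM in WT and 1.195 and 1.107 CPM in HSF1-pLVX cells, a log2 fold change of -0.91 (SE 0.28, adjusted p = 0.01079). The HIST1H3D spanning model had 1.92 and 1.94 CPM in WT and 0.159 and 0.151 CPM in HSF1-pLVX cells. Its log2 fold change was -3.58, whereas HIST1H3D and HIST1H2AD, which it overlaps, were at 0 in every library. Reads of overlapping models could not be assigned to 1 gene, so these 3 records are uncertain.

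Among the H4 genes, which all encode the same core histone protein or a close form of it, HIST1H4I (H4C9, chr6:27138588-27139881) had the highest level per kilobase (12.0 CPM per kilobase). It had 24.03 and 26.32 CPM in WT and 6.13 and 5.69 CPM in HSF1-pLVX cells, with a log2 fold change of -2.09 (SE 0.124, adjusted p = 3.014e-09). HIST1H4H (H4C8, chr6:26277609-26285638) had 10.3 and 14.6 CPM in WT and 0.717 and 0.554 CPM in HSF1-pLVX cells, with a log2 fold change of -4.26 (SE 0.261, adjusted p = 3.982e-09). Like HIST1H2BC it was under 1 CPM in both HSF1-pLVX libraries. HIST4H4 (H4C16, chr12:14767999-14771131), the only member on chromosome 12, had 1.70 and 3.55 CPM in WT and 0.717 and 0.906 CPM in HSF1-pLVX cells, with a log2 fold change of -1.70 (SE 0.371, adjusted p = 0.001018). This was -1.096 without WT replicate 2 and -1.852 without HSF1-pLVX replicate 2, where the call was lost (adjusted p = 0.0723, edgeR). HIST1H4K, the third H4 gene by level per length, had 0.906 and 0.269 CPM in WT and 0.558 and 0.352 CPM in HSF1-pLVX cells. Its groups overlapped and it was not called (adjusted p = 0.5933 by edgeR).

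The 42 members that were not tested are those with few counts in both groups, so a member that was high in WT cannot be among them and their sum says nothing on whether such genes changed. Together they had 2.77 and 4.36 CPM in WT and 3.82 and 2.82 CPM in HSF1-pLVX cells. Among them was HIST1H4C, with 2 and 7 counts in WT and 10 and 5 counts in HSF1-pLVX cells. HIST2H2AC had 3 and 4 counts in WT and 15 and 4 in HSF1-pLVX cells. The ratio of scaled counts for HIST1H3G, WT over HSF1-pLVX, was 0.419 (95% exact interval 0.162 to 0.97, 8 against 23 counts, counting error only). For HIST2H3A it was 9.03 (95% exact interval 2.10 to 81.4, 15 against 2 counts), but the model of HIST2H3A overlaps an H4 gene. For HIST1H2BB it was 8.43 (1.08 to 380, 7 against 1 counts). Such ratios were computed for every member with counts, and the intervals are not corrected for their number. The germline genes HIST1H2AA and HIST1H2BA were at 0 in all libraries. At this depth a change in most single genes of this set was not detectable. The libraries were made from rRNA-depleted total RNA, not from poly(A)-selected RNA, and how fully mRNAs without a poly(A) tail were recovered was not tested.

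A separate sum was made of the 9 members known for polyadenylated transcripts (HIST1H1C, HIST1H2AC, HIST1H2BC, HIST1H2BD, HIST1H2BJ, HIST1H2BK, HIST2H2BE, HIST2H2BF and HIST1H4H). They held 330.9 and 339.5 CPM of the histone sum in WT and 50.9 and 43.9 CPM in HSF1-pLVX cells, a 7.07-fold lower sum, and all 9 were called lower. The other 63 records had 83.5 and 98.2 CPM in WT and 29.2 and 27.1 CPM in HSF1-pLVX cells, a 3.23-fold lower sum, with 18 of 21 tested called lower. The difference between the 2 sets was not tested. A split by gene model gave a similar picture, but the 2 splits share genes. HIST1H2AC, HIST1H2BC, HIST1H2BD, HIST1H2BJ, HIST2H2BF and HIST1H4H belong to both the polyadenylated set and the multi-exon set. The 15 records with more than 1 exon were 7.89-fold lower in sum (12 of 12 tested were called lower), and the 57 single-exon records were 4.48-fold lower (15 of 18). Of the 12, HIST1H2BC, HIST1H2BE, HIST2H2BF, HIST2H4B and the HIST1H3D spanning model passed the filter only through WT. Their direction is not independent of the filter, and the other counts called lower in this paragraph include such members too.

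The annotated models of the members also differed in how far they reached past the stop codon. Of 26 named genes called lower, 19 had a model that extended more than 200 bases beyond the stop codon, which is beyond the stem-loop. Of 42 genes that were not tested, 5 had such a model, and of 3 tested and not called, 2 had it. The filter acts on counts and not on counts per kilobase, so the length of a model bears on which genes were tested. The genes called lower without such a model were HIST1H1C, HIST1H2BK, HIST1H4D, HIST1H2AE, HIST1H2AI, HIST2H2AA3 and HIST2H2AA4. Among these, the models of HIST1H1C and HIST1H2BK ended at the stop codon and yet they had the highest levels per kilobase. A hexamer AATAAA, the usual signal for poly(A) addition, lay within 2000 bases downstream of the stop codon in 61 of 71 genes, and in HIST1H1C 56 and in HIST1H2BD 65 bases after it. These are properties of the sequence and the annotation and do not show which end a transcript had.

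The members were also grouped by their position in the genome. Within HIST1 on chromosome 6, gaps of more than 200 kb divided the genes into 4 stretches. In the stretch from HIST1H1A to HIST1H4H (33 records) the sum was 7.79-fold lower, and 14 of 14 tested records were called lower with a median log2 fold change of -2.98. Between HIST1H2BJ and HIST1H2AH (5 records) it was 3.91-fold lower with 4 of 4 called and a median of -2.01. In the last stretch, from HIST1H2BL to HIST1H2BO (16 records), it was 2.05-fold lower, with 3 of 4 called and a median of -1.01. The first stretch held only the 2 germline genes at 0. The stretches differ in their genes and counts, and the difference between them was not tested. In the stretch from HIST1H1A to HIST1H4H, many of the called records passed the filter only through the WT libraries. They were HIST1H2BC, HIST1H2BE, HIST1H2BF, HIST1H2AE, HIST1H4D, HIST1H4E and the HIST1H3D spanning model. The direction of those records is not independent of the filter, and the median of -2.98 rests partly on them. The same holds for HIST1H2AI in the last stretch. The HIST2 cluster on chromosome 1 (12 records) was 7.53-fold lower in sum, with 5 of 5 called. Of these only HIST2H2BE reached the filter's limit in both groups, and the direction of the others is not independent of the filter. In contrast, the 3 HIST3 genes, also on chromosome 1, had 5.38 and 7.27 CPM in WT and 6.93 and 7.80 CPM in HSF1-pLVX cells, and these groups overlapped.

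**Figure D3:**
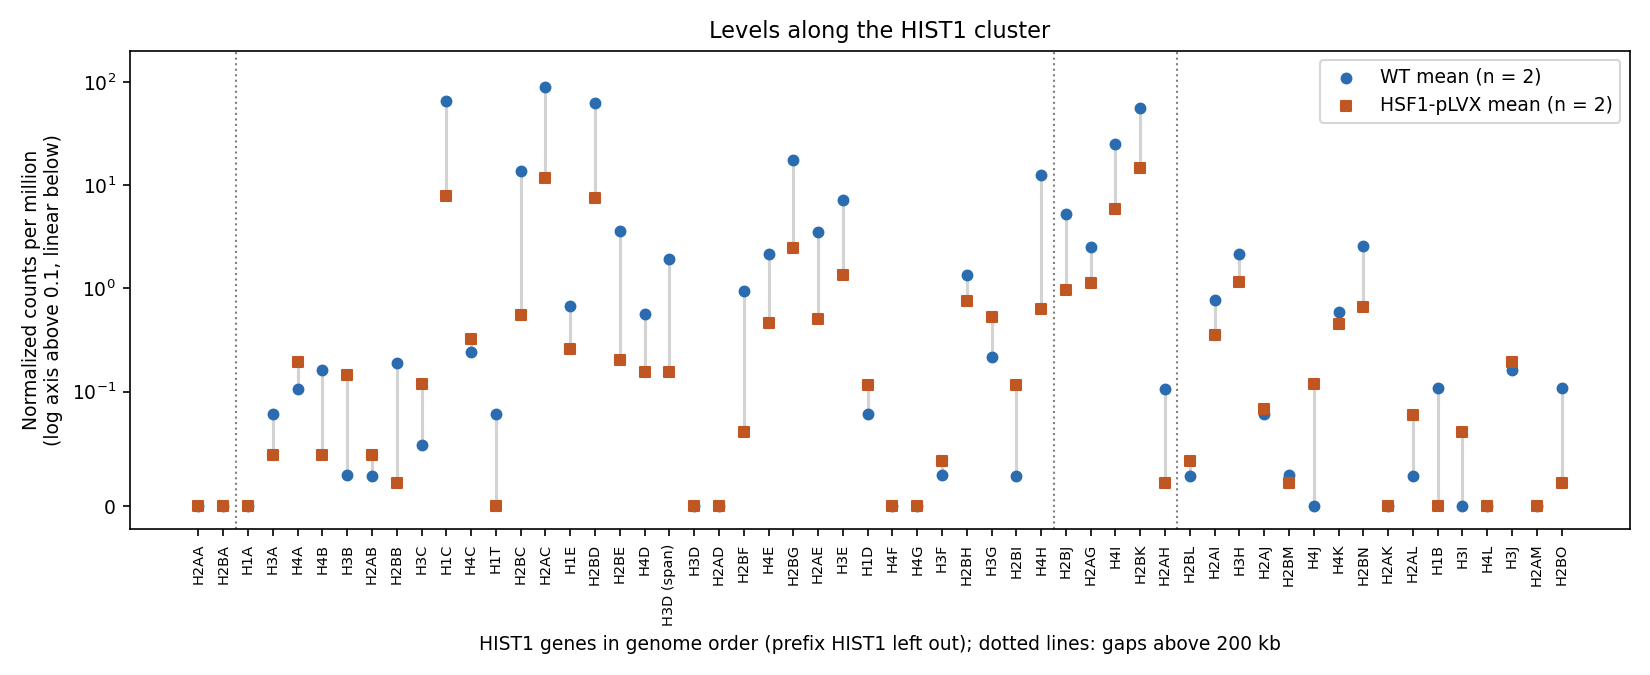
Mean CPM of WT (circles) and HSF1-pLVX cells (squares) for the 56 records of the HIST1 cluster in genome order, 2 libraries per group, on an axis that is logarithmic above 0.1 and linear below. Dotted lines mark gaps above 200 kb. The long vertical lines, which join the 2 means of a gene, are found mostly in the second stretch, and the genes near 0 are spread along the cluster.

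Promoters were examined because many members moved together and because HSF1 binds DNA at inverted repeats of GAA. RefSeq promoters (GRCh38.p14, from 250 bases before to 50 bases after the start) were found for 66 of 71 genes. The CCAAT box (CCAAT) was present in 56 of 66 members (84.8%, against 34.6% of all 35116 promoters), on either strand. It was found in all members of H1, H2A, H2B and H3 with a promoter in the table, but in 3 of 13 H4 genes. The TATA box (TATAAA) was present in 66.7% of members and 11.5% of all promoters. The octamer (ATTTGCAT), bound by POU2F1, was present in 26 members (39.4%) and 1.77% of all promoters, with 25 of the 26 in H2A and H2B genes. The octamer was held by 12 of the 26 members called lower, 0 of the 3 tested and not called, and 14 of the 37 that were not tested. The TATA box was held by 17, 1 and 26 of these, and the CCAAT box by 21, 2 and 33.

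A pair of inverted GAA units (GAANNTTC or TTCNNGAA) was found in 7 of 66 members (10.6%, against 13.5% of all promoters). All 7 were among the 37 members with too few counts to test, and it was in 0 of the 26 called lower and 0 of the 3 not called, so the letters cannot be set against a change in these genes. The 3-unit heat shock element (GAANNTTC followed after 2 bases by a further GAA) was in 0 members and in 0.49% of all promoters. The longer element contains the shorter ones, and a missing match says only that these letters are not in this window. Promoters of 4 members are shown from 250 bases before the start to the base before it, in GRCh38.p14 and 5′ to 3′ on the gene's strand. They are 3 genes that fell and HIST3H2A, which was not called. Capitals mark the CCAAT box, the TATA box and the octamer on either strand, so that a CCAAT box may read ATTGG.

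HIST1H1C (chr6:26056471-26056720, minus strand): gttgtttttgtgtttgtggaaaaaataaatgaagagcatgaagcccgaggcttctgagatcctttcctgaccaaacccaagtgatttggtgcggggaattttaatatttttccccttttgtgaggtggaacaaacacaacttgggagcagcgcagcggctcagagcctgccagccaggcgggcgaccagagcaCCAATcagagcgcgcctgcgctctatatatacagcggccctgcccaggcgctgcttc
HIST1H2AC (chr6:26123922-26124171, plus strand): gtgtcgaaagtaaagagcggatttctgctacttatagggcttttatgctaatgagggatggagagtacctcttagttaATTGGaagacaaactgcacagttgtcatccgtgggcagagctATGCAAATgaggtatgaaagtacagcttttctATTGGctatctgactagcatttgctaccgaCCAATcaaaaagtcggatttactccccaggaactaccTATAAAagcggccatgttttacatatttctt
HIST1H2BK (chr6:27146859-27147108, minus strand): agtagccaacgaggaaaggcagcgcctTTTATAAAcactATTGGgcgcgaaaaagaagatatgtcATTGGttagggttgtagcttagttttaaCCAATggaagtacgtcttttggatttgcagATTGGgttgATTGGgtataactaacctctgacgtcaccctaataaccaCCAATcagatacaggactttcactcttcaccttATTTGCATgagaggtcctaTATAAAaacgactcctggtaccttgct
HIST3H2A (chr1:228457874-228458123, minus strand): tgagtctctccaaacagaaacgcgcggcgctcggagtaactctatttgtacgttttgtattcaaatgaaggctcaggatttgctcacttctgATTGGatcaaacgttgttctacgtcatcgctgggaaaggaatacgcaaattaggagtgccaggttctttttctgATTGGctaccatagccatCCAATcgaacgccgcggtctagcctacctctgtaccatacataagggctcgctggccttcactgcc

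The promoter of HIST1H2AC had 3 CCAAT boxes, an octamer 130 bases and a TATA box 31 bases before the start. That of HIST1H2BK had 6 CCAAT boxes, an octamer 46 bases and the nearest TATA box 27 bases before the start. The HIST1H1C promoter had a single CCAAT box 57 bases before the start, and that of HIST3H2A had 3 CCAAT boxes and neither of the other elements. H2A and H2B genes often lie head to head, and 11 such pairs shared part of their promoter windows. In 4 of them both members were tested. HIST1H2AC and HIST1H2BC shared 255 bases and both fell, with log2 fold changes of -2.91 and -4.60. HIST1H2AE and HIST1H2BG, which shared 268 bases, had log2 fold changes of -2.76 and -2.84. Of these genes, HIST1H2BC and HIST1H2AE passed the filter on low counts only through WT, so their direction is not independent of it. HIST1H2AG and HIST1H2BJ, with 253 shared bases, had log2 fold changes of -1.14 and -2.44. In the pair of HIST3H2A and HIST3H2BB, which shared 271 bases, neither was called.

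The histone genes outside the clusters did not move as 1 group. Of 12 replication-independent genes, 5 rose and 5 fell, where 32.7% of all tested genes rose and 33.2% fell. The median log2 fold change was -0.20, and only CENPA changed by at least 2-fold. CENPA, the centromeric H3 form, had 2.08 and 2.42 CPM in WT and 8.76 and 7.15 CPM in HSF1-pLVX cells (log2 fold change 1.83, SE 0.207, adjusted p = 2.435e-06). H2AZ1 and H2AZ2, which encode the H2A.Z form, rose by 0.87 and 0.62, H2AX by 0.54 and MACROH2A1 by 0.32. The genes for H3.3 fell, H3-3B by 0.58 and H3-3A by 0.28, as did the linker histone gene H1-10 by 0.35 and the H3-5 gene by 0.60. Under at least 1 alternative, H3-3A, H1-10, H3-5, H2AX and MACROH2A1 lost their call. MACROH2A2 and H2AJ were not called. The summed level of these 12 genes was 1272 and 1254 CPM in WT and 1198 and 1194 CPM in HSF1-pLVX cells. They thus had more counts than all clustered genes in both groups.

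The factors that make and end histone mRNA changed little. Of 20 listed genes, 18 were tested, of which 6 rose, 2 fell and none changed by 2-fold. That 6 rose is about the share of all tested genes called higher (32.7%). Without HSF1-pLVX replicate 1, 4 of the 18 were called higher. SLBP had 19.2 and 20.5 CPM in WT and 27.6 and 27.6 CPM in HSF1-pLVX cells, a rise of 0.48 on the log2 scale (SE 0.0984, adjusted p = 0.0006658). CASP8AP2, which acts with the histone coactivator NPAT, rose by 0.79, the cleavage enzyme CPSF3 by 0.53 and the exonuclease ERI1 by 0.48. TUT7, which adds uridines to histone mRNA, fell by 0.40. NPAT (log2 fold change 0.30), LSM11 of the U7 particle (0.42) and its partner LSM10 (-0.34) were called, but the adjusted p in edgeR or DESeq2 reached 0.203, 0.138 and 0.171 under alternatives. The U7 RNA gene RNU7-1 was at 0 in every library.

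The listed genes of DNA replication moved opposite to the tested clustered histone genes. The clustered histone sum came mostly from the 9 members known for polyadenylated transcripts (335.2 of 426.1 CPM, WT means). Many other clustered genes, such as HIST1H4C, had too few counts to test, so this contrast does not cover them. Of 26 S-phase genes, 24 rose, all by at least 2-fold, where 32.7% of all tested genes rose and 14.9% rose by at least 2-fold, and 0 fell (0 also at an unadjusted p of 0.05 by edgeR, and 0 by DESeq2 after adjustment). Their median log2 fold change was 1.72. PCNA, the sliding clamp, had 57.9 and 55.2 CPM in WT and 153.9 and 156.2 CPM in HSF1-pLVX cells. CDT1, which loads the MCM helicase, showed a log2 fold change of 3.34, and CDK2 and CCNE1 were not called. Of 20 histone chaperone genes, 14 rose and 4 fell (ASF1A, ATRX, NAP1L4 and UBN1), with a median of 0.91. Among all tested genes, 32.7% rose and 33.2% fell. ASF1A and NAP1L4 lost their call under at least 1 alternative. NASP, which binds H1 and free H3 and H4, had 26.1 and 26.4 CPM in WT and 132.0 and 143.2 CPM in HSF1-pLVX cells, a log2 fold change of 2.39 (SE 0.091, adjusted p = 4.432e-11). ASF1B rose by 2.07, and CHAF1A and CHAF1B, subunits of the chromatin assembly factor, rose by 1.56 and 1.68. Each comparison is between the same 4 libraries.

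**Figure D4:**
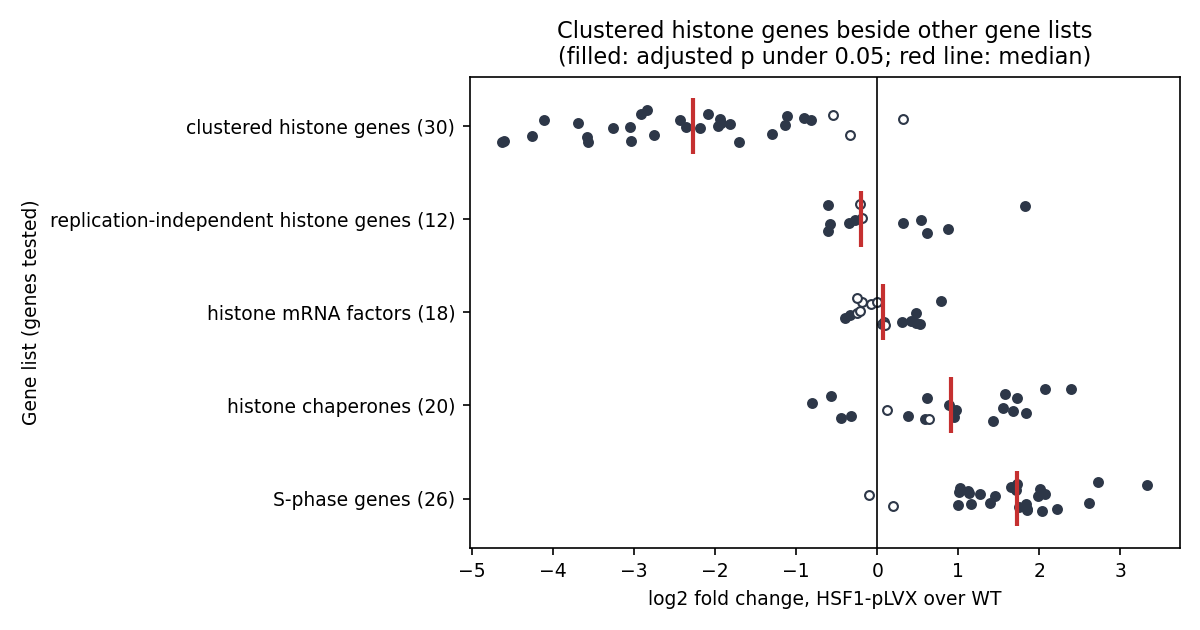
Log2 fold change of HSF1-pLVX over WT (x axis) for the tested genes of 5 lists (y axis, number of genes in parentheses), with 1 point per gene, spread vertically for visibility. Filled points have an adjusted p under 0.05, and red lines mark the medians, which lie at -2.27 for clustered histone genes and 1.72 for S-phase genes.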

How the data were processed

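MCF10A libraries from 2 WT and 2 HSF1-pLVX samples were grouped by their labels. The authors deposited raw counts per gene: per the labels, reads were aligned to hg38 with HISAT2 2.0.5, processed with SAMtools 1.13 and counted with featureCounts 1.6.5. The gene models are those of the count table. How the counting treated strand, multi-mapping and overlaps is not given in the sources used here, so reads of near-identical histone genes may have been divided or dropped. The authors also deposited log2-like values normalized with DESeq2 1.32.0, which were used for gene symbols and for the study's rule of a 2-fold ratio in both replicates.

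Records were matched to symbols by Ensembl id (67), by position (4) or by position and values (1). HIST2H3PS2 was kept, since the annotation lists it as protein-coding. Counts of all 63856 genes were fitted with edgeR 4.0.16 in R 4.3.3 (filterByExpr, TMM, quasi-likelihood test, group as the only term), and p-values were adjusted by Benjamini-Hochberg over 15830 genes. Calls were made at an adjusted p of 0.05. TMM factors were between 0.9635 and 1.0398. The fit was also run on simulated data in which few genes changed and genes with the lowest counts were left out. That run does not cover members with few counts or the many calls made here. A chi-square of 4.39 (WT) and 5.3 (HSF1-pLVX) per degree of freedom showed that the libraries of a pair differed by more than sampling noise. Stop codons came from GENCODE release 44. Genes given with all library values were the 3 per class with the highest level per kilobase, the 2 per class with the largest called decrease and at least 50 counts in each WT library, the HIST3 and HIST4 genes, germline genes and those known for polyadenylated transcripts. The members and lists were chosen with earlier results of these data known. Alternatives were other scalings, no filter, DESeq2's Wald test, a replicate block, other thresholds, the study's rule and each library left out in turn. The values of 1 gene in the lists are not reported here.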

Additional observations from a re-analysis of the deposited data

How the results depend on the processing

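The number of clustered histone genes called lower was between 19 and 28 in all 13 alternatives (27 as reported), and 0 were called higher in each. The lowest count, 19, came without HSF1-pLVX replicate 2 and with the study's ratio rule. HIST1H2BH, HIST1H2AI, HIST1H4D, HIST1H3H, HIST1H2AG, HIST2H4B, HIST1H4E and HIST4H4 lost their call under at least 1 alternative. The median log2 fold change moved to -1.319 without a filter (61 records) and to -1.383 with DESeq2's Wald test, since records with hardly any counts then entered it. Leaving out 1 library at a time gave medians of -2.251 to -2.025. The H2B sum was -2.539 on the log2 scale by library size alone and -2.640 to -2.561 with 1 library left out. The log2 fold change of HIST1H4K, which was not called, ran from -0.973 to 0.786 with 1 library left out, the latter without WT replicate 1. The replication-independent genes called lower numbered 2 to 7 and those called higher 3 to 5 when 1 library was left out. The histone mRNA factors called higher numbered 4 with DESeq2 and 4 to 6 with 1 library left out, where NPAT and LSM11 were among the calls lost. Those called lower numbered 1 by library size alone and 1 with DESeq2, and 1 to 3 with 1 library left out, and the chaperones called lower 2 to 4. A lone library left in a group was assumed to vary like the other group.

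Replicate numbers were not taken to pair the samples, since nothing says that a number marks a shared culture and same-numbered deviations correlated at -0.015 over all tested genes (-0.114 above 8 CPM). With a replicate block, 26 clustered histone genes were called lower and 0 higher, with a median of -2.224, and HIST1H2BH lost its call. With the pairing crossed, an alternative added after seeing the data, 27 were called lower and 0 higher. Levels rest on 2 libraries per group, and at this depth members under about 10 counts could not be tested.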
